A study of Mus musculus with 4 samples.

Results

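*Mme*, *Sulf1*, *Lbhd2*, *Kctd14*, *BC048679* and *Ap3b2* were chosen by their UMI levels, as lower in rete testis (RT) cells of both libraries from mice in which *Sox17* had been deleted. They are 6 of the 31053 genes listed in each of 4 single-cell UMI count matrices, and all 6 were found by their symbols. A UMI (unique molecular identifier) marks 1 captured RNA molecule. Because the comparison of RT cells between the genotypes chose these genes, their values in it are described without a test. Tests were kept for cells and genes that the choice did not use.

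Every library came from C57BL/6 mice at postnatal day 14 (P14), from a piece of testis that holds the RT and the seminiferous tubules next to it, with 3 pups pooled and 5000 cells targeted. The 2 control libraries have the genotype SF1Cre in their records, and the 2 *Sox17*-cKO libraries have SF1Cre:Sox17flox/flox, so that both groups are recorded as carrying the Cre. The study's methods instead describe the controls as floxed mice without it, and this could not be settled from the counts. The Cre is driven by sequences of *Nr5a1* (SF1), which is active across the somatic lineage of the gonad and not in the RT alone. Nothing in the records says which pups or days the libraries share, so that the spread between libraries is the spread between these pools.

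The RT is a network of epithelial channels that collects the contents of the seminiferous tubules and passes them to the efferent ducts. Its epithelium carries PAX8, keratins and E-cadherin, and in the testis SOX17, a transcription factor of the SOX F group, is found in this epithelium and in vascular endothelium. The Sertoli valve (SV) is the narrow end of the tubule, lined by modified Sertoli cells, where it opens into the RT.

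The members do unlike things. *Mme* encodes neprilysin (CD10), a peptidase on the cell surface that cleaves small signalling peptides outside the cell. *Sulf1* encodes an extracellular sulfatase that removes 6-O-sulfate groups from heparan sulfate, the sugar chain to which many growth factors bind. *Ap3b2* encodes the beta subunit of the neuronal form of AP-3, an adaptor complex that sorts cargo into vesicles. *Kctd14* belongs to the KCTD family, whose members share a BTB-type domain, and *Lbhd2* is named for an LBH domain. *BC048679* is a protein-coding gene known by a clone name.

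By RefSeq positions on GRCm38.p6, with strands from GENCODE vM21, *Mme* (ENSMUSG00000027820) lies on the plus strand of chromosome 3 at 63295211 to 63383713. *Sulf1* (ENSMUSG00000016918) is at 12692197 to 12861192 on the plus strand of chromosome 1, and *Lbhd2* (ENSMUSG00000087075) at 111402049 to 111412092 on the plus strand of chromosome 12. The remaining members are on chromosome 7. *Kctd14* (ENSMUSG00000051727) takes 97436380 to 97459557 on the plus strand, whereas *Ap3b2* (ENSMUSG00000062444, 81460399 to 81493997) and *BC048679* (ENSMUSG00000061877, 81494274 to 81498330) lie side by side on the minus strand.

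The libraries held 89969877 to 107203219 UMIs each, and 22567 of 46001 barcodes, those with 1000 to 4500 detected genes, were retained. Clusters were named from marker lists, which gave 11 cell classes and 1 unnamed cluster. The RT-like class held 228 cells, 36 and 73 in the controls and 33 and 86 in *Sox17*-cKO, with median depths of 6543 to 7868 UMIs per cell. Its name was checked against its markers. *Pax8*, a transcription factor of the RT, stood at 310, 428, 215 and 418 CPM (UMIs of a gene scaled to 1000000 UMIs of the class). The first 2 values are the controls 1 and 2 and the others are the *Sox17*-cKO libraries 1 and 2, an order kept throughout. *Krt8*, an epithelial keratin, was at 94.6, 113, 137 and 185 CPM, and *Cdh1*, encoding E-cadherin, at 113, 163, 128 and 153 CPM. Outside this class *Cdh1* reached at most 13.1 CPM in any library. The 8 Sertoli markers summed to 933 to 1510 CPM in RT-like cells, with *Amh* at 0 in each library, against 10302 to 12072 CPM in Sertoli-like cells. The 6 RT markers summed to 609, 840, 703 and 1008 CPM in RT-like cells, below the Sertoli sum in each library. In Sertoli-like cells they summed to 21.4 to 40.2 CPM and in spermatocyte-like cells to 130 to 169 CPM. In RT-like cells undifferentiated spermatogonia markers summed to 333, 417, 319 and 329 CPM, and general germ markers to 216, 41.55, 223 and 99.3 CPM. The sum of the 6 endothelial markers was 503, 467, 385 and 281 CPM, and in control 2 all of it was *Kdr*, the others being at 0. The part of these lists in the results below was not tested.

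The targeted gene was present in control RT-like cells and low after deletion. *Sox17* stood at 356, 312, 45.5 and 34.6 CPM, a mean 8.33-fold lower in *Sox17*-cKO, and the groups did not overlap. The counts come from the 3' end of transcripts, so the *Sox17* UMIs left in *Sox17*-cKO do not show that an intact transcript was made. In endothelial-like cells, which have too few cells for a test (8 to 26 per library), *Sox17* was also lower, at 508 and 344 CPM in the controls against 93.3 and 101 CPM. These rest on 33, 62, 9 and 18 UMIs. The study, by contrast, describes the decrease in its own clusters as specific to the RT cluster. It also reports vascular *Sox17* signals as kept, by in situ hybridization at 4 weeks of age, another method and age.

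In RT-like cells all 6 members were lower in both *Sox17*-cKO libraries than in either control, from 6.04-fold for *Kctd14* to a complete absence of UMIs for *Ap3b2*. In this comparison 8 of 6799 genes tested (0.118%) passed the threshold of an adjusted p of 0.05 as lower (edgeR quasi-likelihood test), and CPM of both *Sox17*-cKO libraries lay below both controls for 15.4% of the tested genes. Nothing is read from either share about the members, since this contrast chose them. In either direction 9 genes passed, a count that was 10 without control 1, 23 without control 2, 106 without *Sox17*-cKO 1 and 68 without *Sox17*-cKO 2. The other genes that passed were *Sox17*, *Rspo1*, which encodes an activator of Wnt signalling, and, as the single gene higher in *Sox17*-cKO, the estrogen sulfotransferase gene *Sult1e1*. Fewer cells of a state and less RNA per cell cannot be told apart from summed counts.

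Both enzymes that act outside the cell were low after deletion. *Mme* stood at 722 and 666 CPM in the controls and at 74.5 and 84.2 CPM in *Sox17*-cKO. The mean was 8.75-fold lower after deletion (log2 fold change -3.15, SE 0.31, n = 2 per group). For *Sulf1* the levels were 159, 170, 20.7 and 28.6 CPM, with a mean 6.67-fold lower in *Sox17*-cKO (log2 fold change -2.70, SE 0.35). Gaps and errors here come from the contrast that chose the genes and are not read as consistency between libraries.

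*Kctd14* stood at 1630 and 1030 CPM in the controls, against 252 and 188 CPM in *Sox17*-cKO. Its fold difference of 6.04 was the smallest of those that could be computed (log2 fold change -2.65, SE 0.37), with *Sulf1* close at 6.67. In the barcodes above 4500 genes, described below, that order was reversed, at 3.885 for *Kctd14* and 3.514 for *Sulf1*. *Lbhd2* stood at 113, 126, 8.27 and 16.5 CPM, a mean 9.66-fold lower in *Sox17*-cKO (log2 fold change -3.13, SE 0.41), which rests on 103 UMIs in the controls and 13 in *Sox17*-cKO. Without *Sox17*-cKO 2 the log2 fold change of *Lbhd2* was -3.84 (SE 0.68).

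The neighbouring pair on chromosome 7 came closest to complete loss. *BC048679* gave 115 and 142 UMIs in control RT-like cells and 0 and 3 in *Sox17*-cKO, or 435, 246, 0 and 4.51 CPM. The pooled control level was 92.2 times the pooled *Sox17*-cKO level, with a 95% interval of 31.2 to 450 that covers counting error only. All of the *Sox17*-cKO UMIs behind this ratio are from *Sox17*-cKO 2, and without that library the *Sox17*-cKO side is at 0. *Ap3b2* gave 26 and 51 UMIs in the controls (98.3 and 88.3 CPM) and none in *Sox17*-cKO. Set against a floor of 3 counts over the group, 3.31 CPM, the control mean was at least 28.2-fold higher.

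**Figure D1:**
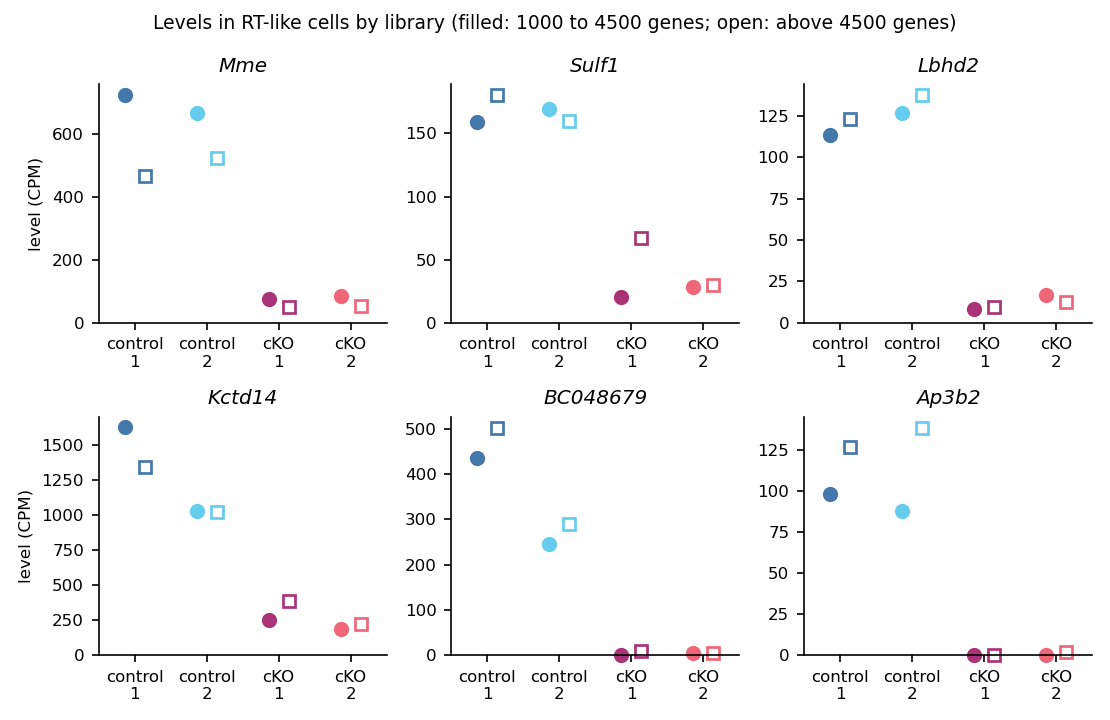
Level of each gene in RT-like cells (CPM, linear axis from 0) in each of 2 control and 2 *Sox17*-cKO libraries; filled circles are retained cells with 1000 to 4500 detected genes and open squares are barcodes above 4500 genes. In every panel both *Sox17*-cKO libraries lie below both controls in both sets of cells, and *Ap3b2* reads 0, 0 in the retained *Sox17*-cKO cells.

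Barcodes with more than 4500 detected genes were outside the retained range. Whether the choice of the members used them is not known, and they come from the same libraries. By their nearest class mean, 254 of these barcodes were RT-like (32, 127, 10 and 85), with median depths of 37602.5 to 43073 UMIs. Their collagen-rich fibroblast markers summed to 620, 870, 654 and 587 CPM, against 182, 305, 261 and 353 CPM in retained RT-like cells. Macrophage markers were at 173 against 9.02 CPM in *Sox17*-cKO 2. Peritubular myoid markers were higher in each library, at 119, 256, 129 and 187 against 15.1, 164, 37.2 and 70.7 CPM. So were Sertoli markers, at 1700, 1218, 1856 and 1442 against 1312, 933, 1510 and 1349 CPM. Germ markers were higher in control 2 alone, at 153, 81.5, 21.55 and 85.7 against 216, 41.55, 223 and 99.3 CPM. Endothelial markers were too, at 390, 495, 247 and 238 against 503, 467, 385 and 281 CPM. Whether these barcodes are doublets was not tested. In these 254 barcodes *Mme* stood at 467, 522, 50.3 and 52.0 CPM, 9.67-fold lower in *Sox17*-cKO, and *Lbhd2* at 123, 137, 9.58 and 12.3 CPM, 11.9-fold lower. Both folds were slightly above those in the retained cells. *BC048679* (502, 289, 9.58 and 5.14 CPM) was 53.7-fold lower, and *Ap3b2* (127, 139, 0 and 1.71 CPM) was 155-fold lower on 6 *Sox17*-cKO UMIs. *Kctd14* (1340, 1023, 388 and 220 CPM) and *Sulf1* (181, 160, 67.0 and 30.0 CPM) were 3.88-fold and 3.51-fold lower, less than in the retained cells, and both were highest in the 10 barcodes of *Sox17*-cKO 1 among the deleted libraries. The groups stayed apart for each member.

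Shares of cells with a UMI come from the same RT-like comparison that chose the members. Lower shares in *Sox17*-cKO follow from that choice and are not read as further support. *Mme* had a UMI in 34 of 36 and 67 of 73 control RT-like cells and in 10 of 33 and 38 of 86 *Sox17*-cKO cells. In spermatocyte-like cells, germ cells used here for the share that free RNA could give, 1.79 to 3.795% had an *Mme* UMI at median depths of 6530 to 8066 UMIs, so the remaining *Sox17*-cKO share, 30.3% (exact 95% interval 15.6 to 48.7%) and 44.2% (33.5 to 55.3%), was above that background. *Kctd14* kept the widest presence, in 35 of 36, 63 of 73, 25 of 33 and 55 of 86 cells, but spermatocyte-like cells also had it at shares of 5.73 to 26.6%. *Sulf1* was found in 23, 37, 5 and 16 cells, and in 1.43 to 6.07% of spermatocyte-like cells. *Lbhd2* was found in 13, 34, 2 and 9 cells, and in 0.299 to 1.74% of spermatocyte-like cells. In *Sox17*-cKO 1 neither can be told from background. The *Sulf1* share there, 15.2% (5.11 to 31.9%), has an interval that takes in the 6.07% of that library's spermatocyte-like cells, and the interval of the *Lbhd2* share, 6.06% (0.743 to 20.2%), takes in their 1.71%.

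*BC048679* had a UMI in 24 and 39 control RT-like cells, in none of the 33 cells of *Sox17*-cKO 1 and in 3 of the 86 cells of *Sox17*-cKO 2 (3.49%, 0.725 to 9.86%). *Ap3b2* had a UMI in 16 and 28 control cells and in none of the *Sox17*-cKO cells, and the count of 0 allows a share of up to 9.09% and 3.49% of cells with a UMI when set at 3 counts, or 10.6% and 4.20% by the exact 95% interval. With each cell thinned to 2000 UMIs, which left out 1, 2, 3 and 2 RT-like cells, both *Sox17*-cKO shares lay below both control shares for all 6 members, as they did before thinning. That order too follows from the choice of the members. At most 0.348% of spermatocyte-like cells of a library had a *BC048679* UMI and at most 0.38% an *Ap3b2* UMI. Intervals and limits of this kind cover counting error alone.

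Control cells held UMIs of more members than *Sox17*-cKO cells did, which follows from the choice of the members by this comparison. The counts are a description, and cells are not replicates of a genotype. Of the 6, a control RT-like cell had a UMI for a median of 4 in each library, against 1 in each *Sox17*-cKO library. At least 4 were found in 25 of 36 and 40 of 73 control cells, and in 0 of 33 and 2 of 86 *Sox17*-cKO cells. None was found in 0 and 1 control cells and in 7 and 15 *Sox17*-cKO cells.

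**Figure D2:**
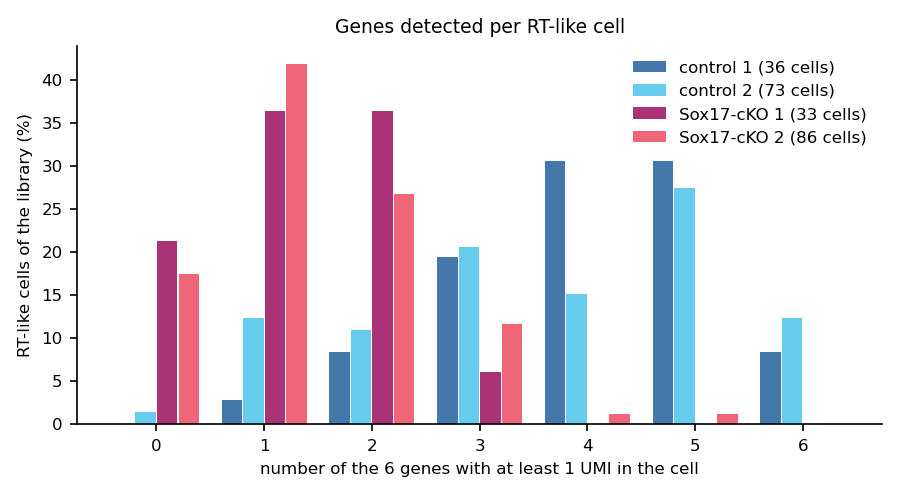
Percentage of RT-like cells of each library (y axis) by how many of the 6 genes had at least 1 UMI in the cell (x axis); colours are the 4 libraries, with their cell numbers in the legend. Control cells centre on 3 to 5 genes and *Sox17*-cKO cells on 1 and 2, in the comparison that chose the genes.

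Cells of the same control library also differed among themselves. In control 2, the 39 cells with a *Sox17* UMI had a median of 5 members and 33 of them had at least 4, whereas the 34 cells without one had a median of 2.5 and 7 of them had at least 4. The cells with a *Sox17* UMI were also deeper, at a median of 9066 against 7106.5 UMIs. In control 1 the 26 cells with and the 10 cells without a *Sox17* UMI both had a median of 4 members, at median depths of 8391 and 5067.5 UMIs. In *Sox17*-cKO the 9 and 20 cells that still had a *Sox17* UMI had medians of 2 and 1 members, and neither *BC048679* nor *Ap3b2* had a UMI in them. Cells of 1 library are not replicates, and these splits are given without a test.

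Over whole libraries the totals of *BC048679* and *Ap3b2* were also lower in *Sox17*-cKO. Most of their control UMIs lay in RT-like barcodes, so these totals largely repeat the comparison that chose the genes. They also move with how many RT-like barcodes a library held. *BC048679* gave 778 and 1843 UMIs over all barcodes of the controls, and 4 and 22 in *Sox17*-cKO. RT-like barcodes, retained or above the range, held 89.3% and 96.3% of the control UMIs. *Ap3b2* gave 213, 919, 37 and 40 UMIs, of which 81.2% and 90.9% were in RT-like barcodes in the controls and 0 and 15.0% in *Sox17*-cKO. Outside both RT-like sets *Ap3b2* kept 40, 84, 37 and 34 UMIs and *BC048679* kept 83, 68, 0 and 1. Scaled to the UMIs of retained cells outside the RT-like class, *Ap3b2* stood at 0.216, 0.416, 0.329 and 0.207 CPM, values that overlap between the genotypes.

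The other members had most of their UMIs elsewhere. RT-like barcodes held 16.4% and 30.4% of all *Mme* UMIs in the controls, 9.10% and 24.7% of those of *Sulf1*, 20.6% and 49.97% of those of *Lbhd2*, and 14.1% and 47.6% of those of *Kctd14*. In *Sox17*-cKO the shares were 1.25% and 3.45% for *Mme*, 0.99% and 4.31% for *Sulf1*, 0.61% and 6.42% for *Lbhd2*, and 2.88% and 11.2% for *Kctd14*. The 2 libraries of each genotype differed in how many RT-like barcodes they held, which moves these shares.

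**Figure D3:**
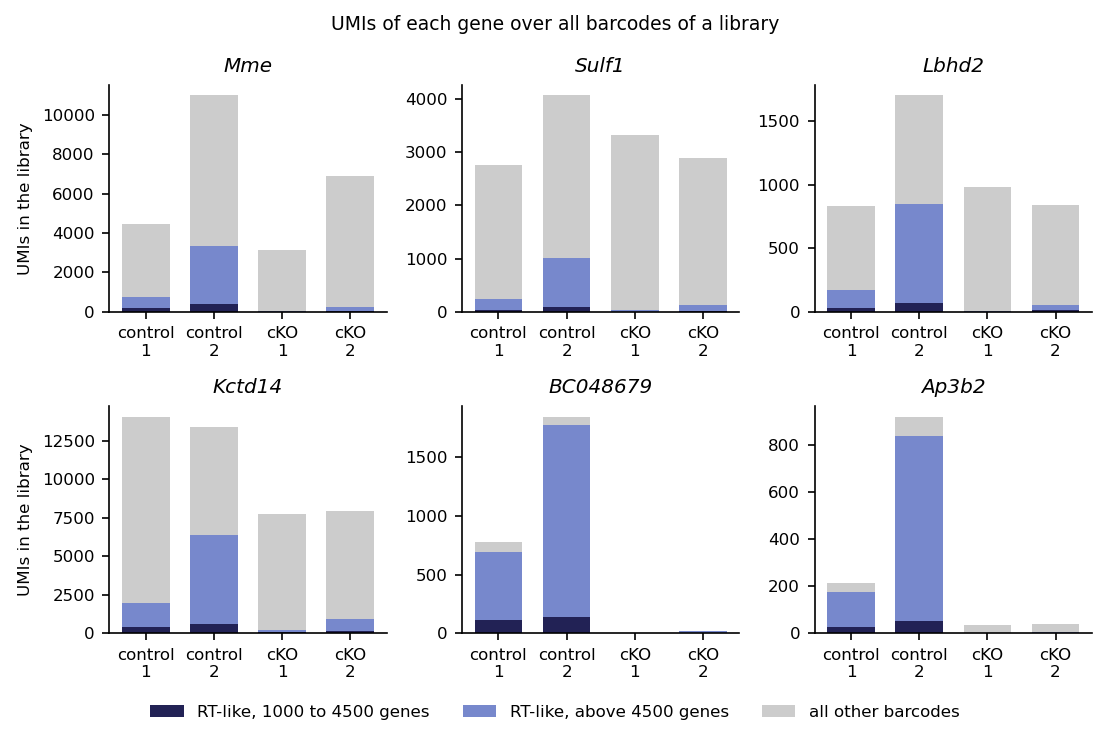
UMIs of each gene over all barcodes of each library (bars from 0), split into RT-like retained cells (dark), RT-like barcodes above 4500 genes (mid blue) and all other barcodes (grey). The bars of *BC048679* and *Ap3b2* are mostly RT-like in the controls, and in *Sox17*-cKO their RT-like part is nearly gone, while *Ap3b2* keeps a grey part of 37 and 34 UMIs and the grey part of *Mme* and *Sulf1* is large in every library.

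*BC048679* and *Ap3b2* are separated by 276 bases, with *BC048679* upstream on the shared minus strand. Their levels followed each other over the 22 points given by 11 classes in 2 control libraries (Pearson r = 0.948 on log2(CPM + 1)), points that share libraries and are mostly near 0. In single cells both were detected together in 11 of 36 and 17 of 73 control RT-like cells, *BC048679* without *Ap3b2* in 13 and 22, and *Ap3b2* without *BC048679* in 5 and 11. Whether they were found together more often than their separate shares would give was not tested. Reads that run from one gene into the other on the same strand cannot be told from separate transcripts in these counts. On the far side of *Ap3b2*, 2397 bases away, *Cpeb1* gave 9, 12, 3 and 7 RT-like UMIs, too few for the test.

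Promoter sequence, taken from RefSeq windows of 250 bases before to 50 bases after a transcript start on GRCm38.p6, was matched for 4 of the 6 members, with 3 starts for *Mme*. *Sulf1* and *Kctd14* were not matched. The windows are printed because these genes were low together in *Sox17*-cKO RT-like cells, and because SOX proteins recognise a short core, ACAAT, which is in capitals where present. The core, searched on both strands, was found in 2 of the 6 windows, 187 bases before the first *Mme* start and 186 bases before the *Lbhd2* start. The *Lbhd2* window lies wholly inside the span of the gene (111402049 to 111412092), so that this start is an internal one. Of all 32851 windows in the table, 31.0% hold it. The longer ACAATGG, which contains the core, was in none of the 6 and is in 3.66% of all windows. The 3' counts do not show which start was used, and a match or its lack says nothing here of binding. The windows below are the first *Mme* start (chr3:63294961-63295260, plus strand), *Lbhd2* (chr12:111406559-111406858, plus strand), *BC048679* (chr7:81498281-81498580, minus strand) and *Ap3b2* (chr7:81493876-81494175, minus strand), the last pair having neither motif.
Mme: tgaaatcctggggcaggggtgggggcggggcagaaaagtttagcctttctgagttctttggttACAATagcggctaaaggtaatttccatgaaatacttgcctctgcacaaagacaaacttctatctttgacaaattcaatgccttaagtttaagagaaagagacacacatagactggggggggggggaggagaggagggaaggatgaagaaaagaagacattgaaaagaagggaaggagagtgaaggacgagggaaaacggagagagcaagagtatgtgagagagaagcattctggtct
Lbhd2: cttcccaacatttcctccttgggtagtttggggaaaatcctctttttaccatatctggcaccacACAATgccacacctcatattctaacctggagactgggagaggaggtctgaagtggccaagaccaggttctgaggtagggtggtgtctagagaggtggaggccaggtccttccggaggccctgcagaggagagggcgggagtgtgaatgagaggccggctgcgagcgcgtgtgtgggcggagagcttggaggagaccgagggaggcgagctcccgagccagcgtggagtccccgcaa
BC048679: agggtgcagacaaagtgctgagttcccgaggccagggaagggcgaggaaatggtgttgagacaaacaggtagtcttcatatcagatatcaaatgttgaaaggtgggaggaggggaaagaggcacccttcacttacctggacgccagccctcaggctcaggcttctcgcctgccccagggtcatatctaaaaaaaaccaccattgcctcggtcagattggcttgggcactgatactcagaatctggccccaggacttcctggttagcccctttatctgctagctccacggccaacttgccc
Ap3b2: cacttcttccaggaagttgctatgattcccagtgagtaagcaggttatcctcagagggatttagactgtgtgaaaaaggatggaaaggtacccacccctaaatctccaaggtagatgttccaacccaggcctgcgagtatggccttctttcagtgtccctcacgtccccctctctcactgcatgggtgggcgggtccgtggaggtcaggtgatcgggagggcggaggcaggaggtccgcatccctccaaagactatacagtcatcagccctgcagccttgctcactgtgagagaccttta

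Across the 11 classes the RT-like class had the highest control level of every member, and in each case both control libraries lay above those of the next class, although the distance varied widely. *Mme* had the nearest second class. It stood at 439, 413, 411 and 413 CPM in peritubular myoid-like cells, the contractile layer around the tubule, so that the control RT-like mean was 1.63 times the myoid-like mean. Fibroblast-like cells followed at 209, 234, 213 and 254 CPM. Both were apart from each other and from the Sertoli-like cells at 49.7, 38.9, 43.6 and 36.6 CPM, below which the control ranges of successive classes overlapped down to the germ cells. After deletion the order changed, since the *Sox17*-cKO RT-like mean of 79.3 CPM was below that of myoid-like and fibroblast-like cells.

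*Kctd14* and *Sulf1* had their second level in Sertoli cells. *Kctd14* stood at 329, 285, 231 and 246 CPM in Sertoli-like cells, and the control RT-like mean was 4.34 times the Sertoli-like mean. In *Sox17*-cKO the RT-like mean of 220 CPM lay beside the 238 CPM of Sertoli-like cells, and the values of the 2 classes overlapped. *Kctd14* in germ cells was low and ran with the library number: undifferentiated spermatogonia-like cells gave 15.03 and 14.2 CPM in the libraries numbered 1 and 3.56 and 4.34 CPM in those numbered 2. The numbers also separate the Cell Ranger versions, 6.0.2 and 6.1.2, and the 2 cannot be told apart. In spermatocyte-like cells *Kctd14* was at 54.8, 12.7, 32.1 and 9.52 CPM. The 8 Sertoli markers ran the same way there, summing to 1732, 413, 1431 and 296 CPM. Whether *Kctd14* in germ cells is RNA from Sertoli cells was not tested.

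*Sulf1* stood at 57.9, 61.3, 84.2 and 76.0 CPM in Sertoli-like cells, with a control RT-like mean 2.76 times as high, and at 38.6, 49.9, 37.9 and 29.1 CPM in fibroblast-like cells. Endothelial-like cells gave 15.4, 33.3, 114 and 50.5 CPM on 27 UMIs in all, so their place in the order is uncertain. In *Sox17*-cKO the RT-like level of *Sulf1*, 24.6 CPM on average, was below the Sertoli-like level of both libraries.

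*Lbhd2* had a broader but lower second tier. Fibroblast-like cells stood at 23.9, 14.9, 26.9 and 22.2 CPM and undifferentiated spermatogonia-like cells at 16.6, 17.8, 29.6 and 21.7 CPM, ranges that overlapped. The control RT-like mean was 6.19 times that of the fibroblast-like cells. Sertoli-like cells followed at 6.80 to 10.8 CPM over the 4 libraries.

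*BC048679* and *Ap3b2* had few UMIs outside RT-like cells in the controls. The next class for both was endothelial-like, at a mean of 2.78 CPM that came from 1 UMI. Beyond RT-like cells the retained controls held 21 and 14 *BC048679* UMIs spread over several classes, at no more than 2.27 CPM in classes other than endothelial-like, and *Sox17*-cKO held none. For *Ap3b2*, undifferentiated spermatogonia-like cells gave 0.92, 3.56, 3.55 and 4.34 CPM from 3, 2, 6 and 4 UMIs, and spermatocyte-like cells gave 0.234, 0.686, 0.531 and 0.453 CPM. These counts are low, and whether they are expression outside RT-like cells or free RNA was not tested for either gene. In the *Sox17*-cKO libraries *Ap3b2* had no UMI in retained RT-like cells and 0 and 6 in RT-like barcodes above 4500 genes. Outside both sets it had 37 and 34 UMIs.

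**Figure D4:**
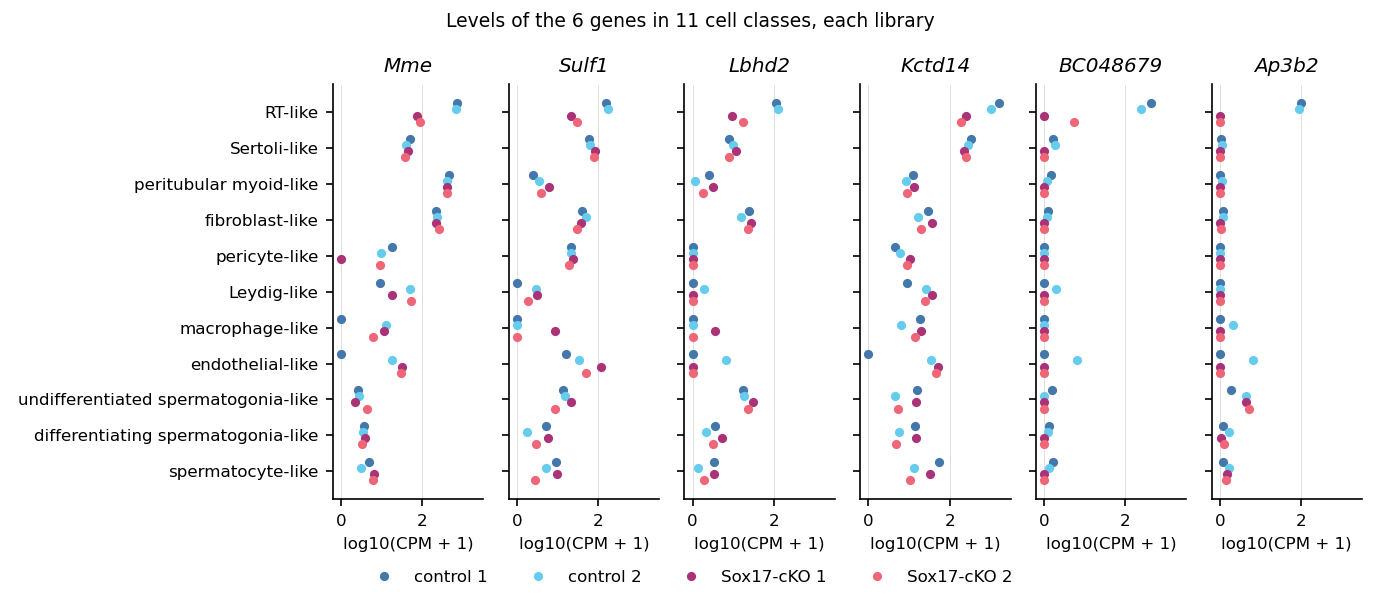
Level of each gene, as log10(CPM + 1), in 11 cell classes (rows), with 1 point for each of the 4 libraries (blue, control; red, *Sox17*-cKO). In the top row the *Sox17*-cKO points lie left of the control points in all 6 panels, and in the myoid-like and fibroblast-like rows of *Mme* the 4 points nearly coincide.

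Whether the lower levels were limited to RT-like cells was then asked in the other classes, on which the members had not been chosen. Outside RT-like cells no member passed the threshold. Of 27 tests of 4 members over 8 classes and a subset of the Sertoli-like cells, 0 had an adjusted p under 0.05 (edgeR quasi-likelihood test), and 1 had an unadjusted p under 0.05, that of *Kctd14* in the subset. Over the same fits 0.602% of all tests of genes had one. Among all genes the share called was 0% in each of these classes. DESeq2 called 0 of the members too. With a library left out 12 to 39 genes were called over these classes, none of them a member. The log2 fold changes ran from -0.95 to 0.84 with a median of 0.014, 13 below 0 and 14 above. Only 14 of the tests concerned a member with at least 10 CPM in both controls, and the remaining 13 had a median fold change near 0.04 with wide errors.

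*Mme*, whose levels outside RT-like cells were highest in myoid-like and fibroblast-like cells, passed in none of these classes. In myoid-like cells it differed by -0.11 on the log2 scale (95% interval -0.62 to 0.39), in fibroblast-like cells by 0.014 (-0.55 to 0.58), and in Sertoli-like cells by -0.27 (-0.88 to 0.34). None of the intervals reached the difference of -3.15 in RT-like cells. They do leave room for smaller changes, and the difference between RT-like cells and each class was not tested, since the RT-like value was chosen for its size.

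*Sulf1* differed by 0.29 in Sertoli-like cells (-0.29 to 0.88), where both *Sox17*-cKO libraries were above both controls, as for 16.7% of the genes tested there, without passing the test (adjusted p = 1.0, edgeR). In fibroblast-like cells the difference was -0.48 (-1.11 to 0.16). Both *Sox17*-cKO libraries were below both controls there, though *Sox17*-cKO 1 at 37.9 CPM lay beside control 1 at 38.6 CPM. The share of all genes with that order was not computed for this class. *Lbhd2* differed by 0.29 in fibroblast-like cells (-0.46 to 1.04) and by 0.54 in undifferentiated spermatogonia-like cells (-0.29 to 1.38). In neither class was it lower in *Sox17*-cKO on average.

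*Kctd14* was lower in *Sox17*-cKO libraries in Sertoli-like cells without passing the test. In Sertoli-like cells both *Sox17*-cKO libraries were below both controls, as for 4.61% of the 12479 genes tested there, with a log2 difference of -0.49 (-1.11 to 0.12, adjusted p = 1.0, edgeR). The order was the same in each of the 3 clusters that make up the class, at 356, 305, 281 and 267 CPM in the first, 277, 251, 204 and 199 CPM in the second and 168, 191, 97.6 and 136 CPM in the third, and in the Sertoli-like barcodes above 4500 genes at 310, 297, 259 and 267 CPM. All of these share the 4 libraries.

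A subset of 356 Sertoli-like cells was separated by a second clustering, chosen after the data were seen. It had the highest level of 4 of the 5 SV markers among 7 subclusters, but *Cyp26a1*, the other marker, was at 23.2 CPM in it and at 43.4 and 27.6 CPM in 2 other subclusters. In it *Kctd14* stood at 337, 377, 226 and 158 CPM, a log2 difference of -0.95 (SE 0.31, interval -1.63 to -0.28, adjusted p = 1.0, edgeR), and 1.38% of genes had an unadjusted p under 0.05 there. It did not pass the adjusted threshold under any of the 9 alternatives run for the subset, its adjusted p running from 0.129 with a replicate block to 1.0. *Mme* differed by -0.52 (-1.36 to 0.32) and *Sulf1* by 0.30 (-0.53 to 1.14) in the same cells, with *Mme* at 48.0, 40.9, 39.8 and 26.7 CPM.

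*BC048679* and *Ap3b2* were under the filter on low counts in every other class. With no filter 15 tests of them could be run, 0 passed, and 1 had an unadjusted p under 0.05, against 0.0215% and 1.13% of all tests of genes in those fits. That was *BC048679* in Sertoli-like cells, with 13 UMIs in the controls and 0 in *Sox17*-cKO (adjusted p = 1.0, edgeR). In each of its 8 tests *BC048679* had 1 to 13 control UMIs and 0 in *Sox17*-cKO, counts too low for the test to say whether its loss was limited to RT-like cells. In Sertoli-like barcodes above 4500 genes *BC048679* had 37, 13, 0 and 1 UMIs. There too both *Sox17*-cKO libraries were below both controls, at levels of at most 2.03 CPM. Whether these UMIs are free RNA of RT cells, in which the gene was also lower, was not tested. Endothelial-like cells, the other class with *Sox17*, were left out of the tests for their cell number. There *Mme* stood at 0, 16.6, 31.1 and 28.1 CPM and *Kctd14* at 0, 33.3, 51.9 and 44.9 CPM, so that neither was lower in *Sox17*-cKO on average.

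**Figure D5:**
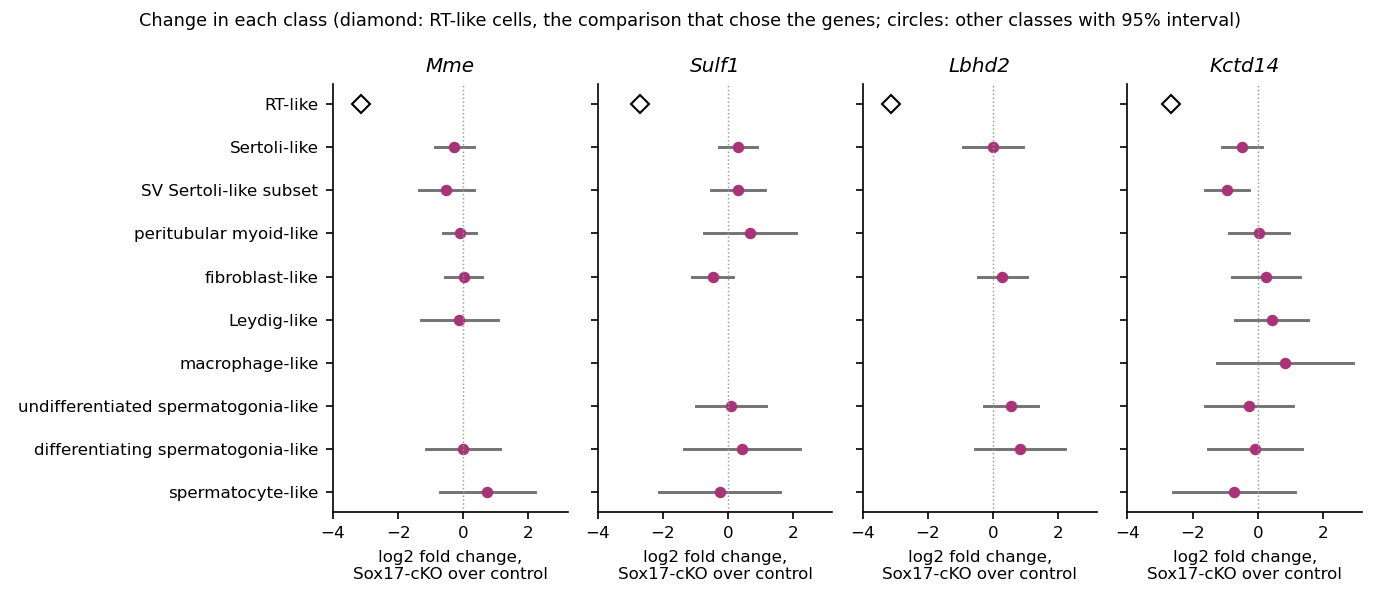
Log2 fold change (*Sox17*-cKO over control, 2 libraries each) of 4 genes in each class; the diamond is the RT-like comparison that chose the genes, drawn without an interval, and circles are other classes with 95% intervals from the edgeR fit. The diamonds lie between -3.15 and -2.65, and among the circles only the *Kctd14* interval in the SV Sertoli-like subset leaves out 0.

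Genes next to the members were compared in RT-like cells. Of 30 neighbouring genes, up to 3 a side of each member and other than members, 16 were in the count tables. Of these 6 were high enough to test, and 0 passed the threshold with edgeR, although 2 had an unadjusted p under 0.05, as did 5.72% of all genes tested in RT-like cells. These were *Tnfaip2*, 30357 bases beyond *Lbhd2*, with 12, 28, 3 and 9 UMIs (log2 fold change -1.86, SE 0.46, adjusted p = 0.327, edgeR), and *Thrsp*, 18829 bases before *Kctd14*, a gene tied to lipid synthesis, with 28, 87, 14 and 19 UMIs (-1.76, SE 0.42, adjusted p = 0.303, edgeR). In CPM both *Sox17*-cKO libraries were below both controls for each. DESeq2 called 0 of the 5 for which it gave an adjusted p, and gave none for *Tnfaip2*. *Thrsp* passed without *Sox17*-cKO 1 (adjusted p = 0.000137, edgeR), with no filter on low counts and with a replicate block, and *Tnfaip2* with the block (0.00688) and in the barcodes above 4500 genes (-2.60, adjusted p = 0.0152, edgeR). *Ndufc2*, *Ints4*, *Aamdc* and *Cdc42bpb* differed by -0.44, -0.22, -0.53 and 0.22.

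The genes most like a member across the control classes differed widely in their own RT-like comparison. Likeness was Pearson's r over the same 22 points, among 15177 genes. For *Ap3b2* the nearest were *Rmst* (r = 0.979), a long non-coding RNA at 1104, 1286, 790 and 874 CPM, *Pax8* (0.959) and *Slc34a2* (0.955), a sodium-phosphate cotransporter at 94.6, 299, 199 and 229 CPM. The log2 fold changes of these in RT-like cells were -0.56, -0.24 and 0.04. *Slc34a2* (0.968) and *Fermt1* (0.968), which encodes an integrin-binding kindlin, were also the nearest to *BC048679*, and *Fermt1* differed by -0.13. The third, *Gm41177* (0.961), was at 75.6, 86.6, 8.27 and 31.6 CPM (log2 fold change -1.81, adjusted p = 0.372, edgeR). *Gm41177* passed without *Sox17*-cKO 2 (adjusted p = 0.0143, edgeR), with a replicate block (0.000331) and with no filter on low counts (0.0153).

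Among the genes most like *Sulf1*, *Plat*, which encodes tissue plasminogen activator, stood at 87.0, 180, 16.5 and 19.6 CPM in RT-like cells (r = 0.917, log2 fold change -2.91, SE 0.46, adjusted p = 0.074, edgeR), and *Pcsk6*, a proprotein convertase, at 60.5, 34.6, 0 and 1.504 CPM (r = 0.856, adjusted p = 0.106, edgeR). Their groups did not overlap and both missed the threshold. *Plat* passed it with DESeq2 (adjusted p = 0.00786) and without control 1 or either *Sox17*-cKO library, but not without control 2 (adjusted p = 0.318, edgeR). It also passed with a replicate block (3.36e-13), with no filter (2.85e-07) and below 10% mitochondrial UMIs (0.0353). *Pcsk6* passed without *Sox17*-cKO 1 (adjusted p = 8.53e-05, edgeR), with the block (5.93e-07), with no filter (4.3e-06) and in the barcodes above 4500 genes (0.0193). *B430010I23Rik* (0.879) was at 64.3, 24.2, 33.1 and 31.6 CPM. For *Mme* the nearest were *Stk26* (0.914), *CT025619.1* (0.906) and *Ppargc1a* (0.899), with log2 fold changes of 0.10, -0.97 and 0.52, and for *Kctd14* they were *Il17re* (0.940), *Plppr4* (0.923) and *Trpm3* (0.906), the first of these at 0.32 and the second at -0.48. For *Lbhd2* they were *Kcnh3* (0.903), *Ptpn3* (0.868) and *Sp5* (0.867), of which *Sp5*, a transcription factor downstream of Wnt signalling, was at 60.5, 27.7, 16.5 and 13.5 CPM (-1.52, adjusted p = 0.76, edgeR). Of the 14 of these genes that could be tested, 0 passed the threshold with edgeR, and 4 were under 0.05 before adjustment, beside the 5.72% of all genes. The replicate block called 3 of the 14, *Plat*, *Pcsk6* and *Gm41177*. DESeq2 called *Plat* alone among 11, and gave *Pcsk6*, *Sp5* and *CT025619.1* no adjusted p.

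Relatives and partners of the members were not called in RT-like cells. Over the 7 lists compared here, *Ece1* alone among the tested genes other than members and *Sox17* was under 0.05 before adjustment. That is 1 of 27 genes, beside 5.72% of all genes tested in RT-like cells. With DESeq2 0 were called of the 17 that had an adjusted p. Of the other AP-3 subunits, 6 of 6 could be tested and 0 passed in either direction, with a median log2 fold change of 0.13 against -0.001 over all genes. *Ap3b1*, the beta subunit that most tissues use, stood at 56.7, 62.3, 95.2 and 49.6 CPM, values that overlapped between genotypes, while *Ap3b2* had no UMI in *Sox17*-cKO. *Ap3s1* was at 106, 114, 74.5 and 93.3 CPM and *Ap3m2* at 18.9, 46.7, 16.5 and 24.1 CPM.

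For heparan sulfate, 7 of 19 genes of synthesis and editing were tested and 0 passed, with a median of -0.30. *Sulf2*, the other extracellular sulfatase of this kind, was at 121, 161, 120 and 165 CPM, a log2 difference of -0.01 (SE 0.31). *Ndst1* and *Ext2*, which modify and extend the chain, differed by -0.59 and -0.33. Of 11 core proteins 5 were tested and 0 passed, with a median of -0.08, and *Sdc4*, a syndecan, was at 685, 791, 819 and 639 CPM. *Sdc2* and *Hspg2*, which encodes perlecan, differed by -0.39 and -0.54.

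Among cell surface peptidases, 2 of 11 were tested and 0 passed. *Ece1*, endothelin-converting enzyme, of the same family as neprilysin, was at 64.3, 77.9, 120 and 161 CPM (log2 fold change 0.95, SE 0.32, adjusted p = 0.661, and 0.0234 with a replicate block, edgeR), higher in both *Sox17*-cKO libraries without passing the test. *Lnpep* differed by -0.13, and *Ece2* had 1 UMI. In the KCTD family 6 of 21 were tested and 0 passed, with a median of -0.26, among them *Kctd1* at 37.8, 57.1, 29.0 and 58.7 CPM. *Kctd12b* and *Kctd13* differed by -0.59 and -0.80. *Lbh* was at 83.2, 83.1, 66.2 and 82.7 CPM, and *Lbhd1* had 3 UMIs. Of the other SOX F genes, *Sox7* had no UMI in RT-like cells and *Sox18* had 3, all in control 2.

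Near the threshold of the RT-like comparison, the 3 genes just inside were *Sult1e1* at 7.56, 12.1, 414 and 152 CPM, *Rspo1* at 132, 104, 16.5 and 6.02 CPM, and *Kctd14* among the members. Just outside were *Eppin* at 11.3, 6.92, 78.6 and 82.7 CPM, *Rnase12* at 18.9, 60.6, 430 and 287 CPM, and *Wfdc2* at 60.5, 86.6, 918 and 378 CPM, each of them higher in *Sox17*-cKO.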

How the data were processed

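scRNA-seq libraries were prepared with a 10x Genomics 3' kit, and per the labels and the study's methods the reads were mapped to mm10 (GRCm38) and counted with Cell Ranger (headers: 6.0.2 and 6.1.2). The authors deposited whole UMI counts per gene and barcode, not normalized; a merged copy of some libraries was not used. Members and gene lists were chosen with earlier results of these data known.

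Barcodes with 1000 to 4500 detected genes were kept. The study's mitochondrial limit was not applied, a choice made after seeing the data; a limit of 10% was an alternative. Cells were integrated by canonical correlation and clustered at a resolution of 0.4 on 20 components of 2000 variable features (Seurat 5.3.0, R 4.3.3), leaving out 79 genes (members and list genes, *Sox17* included). Clusters were named from marker lists, and the SV subset came from a second clustering of Sertoli-like cells. Scrublet (Scanpy 1.11.5, Python 3.11.15, SciPy 1.17.1, NumPy 2.4.6, pandas 2.3.3) called 0, 208, 0 and 330 barcodes, none of them a retained RT-like cell, and did not work in the libraries with 0. Calls among the RT-like barcodes above 4500 genes were not counted, and doublets were kept. Between pairs of libraries 20 to 43 barcodes were shared.

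UMIs were summed per class and library and compared with edgeR 4.0.16 (limma 3.58.1), with TMM scaling, filterByExpr, a quasi-likelihood F test, two-sided, and Benjamini-Hochberg adjustment over all genes of a class, in classes with at least 10 cells per library. Libraries, not cells, are the replicates, 2 per genotype. DESeq2 1.42.0 was an alternative. The script was tested on simulated data. Barcodes above 4500 genes were assigned to the class whose mean correlated best, which returned 92.9% of retained cells to their own class. Genes named are the members, *Sox17*, *Pax8*, *Krt8* and *Cdh1*, the 3 genes most like each member, neighbours up to 3 a side, the leading 3 genes of each list by control RT-like level, and the 3 genes on either side of the threshold.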

Additional observations from a re-analysis of the deposited data

How the results depend on the processing

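In RT-like cells the members kept their direction under each of 12 alternatives. These left out each library, added a replicate block or used the barcodes above 4500 genes. Others changed the test tool, the filter, the mitochondrial limit, the integration, the resolution or the doublets. The direction followed from the choice of the members by the same contrast, so that only the sizes of the changes are read. Of 72 such values 62 stayed within the spread between replicates and 10 moved. Resolution 0.8 and the removal of doublets left the RT-like cells as they were. Their values repeat the main fit, are among the 62 and say nothing of stability. Without *Sox17*-cKO 2 the log2 fold change was -3.84 instead of -3.13 for *Lbhd2*, -3.003 instead of -2.70 for *Sulf1*, and -9.94 instead of -6.62 for *BC048679*, which then has no *Sox17*-cKO UMI. In the barcodes above 4500 genes it was -1.99 for *Sulf1*, -1.97 for *Kctd14* and -6.45 for *Ap3b2*. The remaining 4 were fitted values of *Ap3b2*, from -8.57 to -7.69 against -8.37, with no *Sox17*-cKO UMI behind them. The genes called there were 9 in all, but 10 to 106 when a library was left out, 274 with a replicate block, 21 with DESeq2, 99 with no filter on low counts, 16 below 10% mitochondrial UMIs and 4 with no integration. Without control 1 the count was 10, without control 2 it was 23, without *Sox17*-cKO 1 it was 106 and without *Sox17*-cKO 2 it was 68. The replicate numbers are shared by 2 pairs only, whose deviations correlated at r = 0.397 over 5659 genes, and they coincide with the Cell Ranger version. Over the other classes together, pericyte-like cells included, 0 genes were called, against 24 to 43 with a library left out, 65 with the replicate block, 1 with DESeq2 and 44 with no filter, and none of them was a member. The cause was not tested. For the 14 tests outside RT-like cells of members at 10 CPM or more in both controls, 137 of 148 values kept direction and call; directions of the other 13 tests were not compared. Changes of direction came with a library left out for *Mme* (-0.13 to 0.14), *Lbhd2* (-0.023 to 0.63) and *Kctd14* (-0.26 to 0.72) in fibroblast-like cells, *Kctd14* in spermatocyte-like cells (-1.80 to 0.65), *Sulf1* in the SV Sertoli-like subset (-0.24 to 0.75) and *Sulf1* in undifferentiated spermatogonia-like cells (-0.84 to 0.53), the last also with no integration (-0.091) and at resolution 0.8 (-0.096). The SV Sertoli-like subset was not remade with no integration or at resolution 0.8. With the longer SOX motif ACAATGG the count of windows was 0 instead of 2. With 2 libraries per genotype and 33 to 86 RT-like cells in each, small changes could not be detected.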

Other observations

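In undifferentiated spermatogonia-like cells *Lbhd2*, *Sulf1* and *Kctd14* had 134, 90 and 79 UMIs over the 4 libraries, and *Ap3b2*, *Mme* and *BC048679* had 15, 11 and 2. *Pax8* had a low level there, at 6.13, 5.33, 12.4 and 15.2 CPM. *Sox17* had 1 UMI in these germ cells, in control 2 (1.78 CPM), a depth at which a low level cannot be told from none.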
